A study of Homo sapiens with 4 samples.

Results

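The casein kinases 1 and 2 were followed as the 9 genes CSNK2A1, CSNK2A2, CSNK2B, CSNK1A1, CSNK1D, CSNK1E, CSNK1G1, CSNK1G2 and CSNK1G3, found by symbol among the 62443 genes of the expression table. RNA-seq had been performed on HGC-27, an established human gastric cancer cell line grown in medium with serum. Of the 4 libraries, 2 came from cells given GLUP at 10 μg/ml and 2 were controls. GLUP is a linker peptide designed to gather molecules of TEAD4, the DNA-binding partner of the coactivator YAP, into repressive condensates. Controls are labelled as having no treatment, and the methods name the peptide's storage buffer for them. The exposure is written as 12 h at one place of the study and as 48 h at another. Both groups are the same line, with no other allele or agent in the labels. The comparison asks which transcripts differ between cells with and without the peptide.

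Casein kinase 2 (CK2) is a constitutively active serine/threonine kinase. It is built from catalytic subunits, alpha (CSNK2A1), alpha prime (CSNK2A2) or both, and a dimer of the regulatory beta subunit (CSNK2B). The CK1 kinases act as single chains. CK1 alpha (CSNK1A1) primes beta-catenin for its destruction, CK1 delta (CSNK1D) and CK1 epsilon (CSNK1E) set the pace of the circadian clock and complete a phosphodegron on YAP after LATS has phosphorylated it, and the CK1 gamma kinases (CSNK1G1, CSNK1G2 and CSNK1G3) sit at the plasma membrane, where they phosphorylate the Wnt coreceptor LRP6.

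CSNK2A2 was chosen by its FPKM values, which were lower with GLUP than in the controls, and the other 8 genes were chosen as its family. The values below are therefore a description of the members, and no test or p-value is given for them. Positions are those of GENCODE v44 lifted to GRCh37. The catalytic paralogs CSNK2A1 (chr20:453142-524479, minus strand) and CSNK2A2 (chr16:58191811-58232010, minus strand) are separate multi-exon genes whose coding sequences are 76.4% identical over 1047 aligned bases. The stretch of 60 coding bases in which they differ least is shown because a read can be placed on one paralog only where their letters differ. It spans coding bases 601 to 660 of CSNK2A1 (exons 9 to 10, chr20:470487-472918) and coding bases 604 to 663 of CSNK2A2 (exons 7 to 8, chr16:58201174-58201609). The third line is CSNK2A3, an intronless copy of CSNK2A1 on the minus strand of chromosome 11 (coding bases 601 to 660, chr11:11374007-11374066). Capitals mark letters that differ from CSNK2A1.
CSNK2A1: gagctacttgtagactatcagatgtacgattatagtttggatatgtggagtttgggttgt
CSNK2A2: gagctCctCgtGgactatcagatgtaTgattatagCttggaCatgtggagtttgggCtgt
CSNK2A3: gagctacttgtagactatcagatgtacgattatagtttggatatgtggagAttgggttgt
Even here CSNK2A2 differed from CSNK2A1 at 7 of 60 bases, whereas CSNK2A3 differed at 1. Over the canonical transcripts (1887 bases for CSNK2A2), 0.0% of the 50-base words of CSNK2A2 occurred on the same strand of another gene. For CSNK2A1 the share was 7.5%, mostly in CSNK2A3. The longest annotated transcript of CSNK2A2, of 7382 bases, was not searched. The coding sequences of CSNK2A1 and CSNK2A3 are 99.3% identical, so their values are uncertain relative to each other. No such sharing was found for the canonical transcript of CSNK2A2.

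The promoters of the same pair are shown because CSNK2A2 was lower in both GLUP libraries than in both controls, whereas CSNK2A1 overlapped. Whether promoter sequence bears on this was not tested. Each window runs from 250 bases before to 50 bases after the annotated start, from RefSeq on GRCh38.p14, at chr20:543741-544040 for CSNK2A1 and chr16:58198057-58198356 for CSNK2A2, both on the minus strand. Capitals mark CG dinucleotides.
CSNK2A1: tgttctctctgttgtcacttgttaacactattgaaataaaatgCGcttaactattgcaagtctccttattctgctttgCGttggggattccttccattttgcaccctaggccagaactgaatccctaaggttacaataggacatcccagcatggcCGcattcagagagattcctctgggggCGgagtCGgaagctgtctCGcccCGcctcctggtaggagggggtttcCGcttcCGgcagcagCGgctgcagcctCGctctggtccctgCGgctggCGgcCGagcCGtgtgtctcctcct
CSNK2A2: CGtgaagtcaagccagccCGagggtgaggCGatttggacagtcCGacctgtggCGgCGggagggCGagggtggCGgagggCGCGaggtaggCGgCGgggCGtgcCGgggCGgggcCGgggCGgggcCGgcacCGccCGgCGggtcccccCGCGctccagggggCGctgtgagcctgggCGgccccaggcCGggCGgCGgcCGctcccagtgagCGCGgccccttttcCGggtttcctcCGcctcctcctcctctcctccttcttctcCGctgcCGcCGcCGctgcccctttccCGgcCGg
The CSNK2A2 window holds 39 CG dinucleotides at 78.3% GC, and the CSNK2A1 window holds 15 at 55.3% GC, against a median of 58.7% GC over 35116 promoters. The TEAD core CATTCC, searched on both strands (GGAATG on the other), was found in none of the 9 windows of the 7 members with an entry and in 14.0% of all promoters. At that share, finding none in so few windows is not a result about the members. CSNK1D and CSNK1G2 had no entry, and sequence outside these windows was not searched.

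The 4 libraries had FPKM sums of 909735 to 949919, and the absolute read depth behind them is unknown. Among genes under 0.15 FPKM, the most frequent ratio of GLUP replicate 1 to another library, shared by 11 to 15 genes, was 1.06 for GLUP replicate 2, 1.04 for control replicate 1 and 0.883 for control replicate 2. If these low values are single reads, control replicate 2 had the fewest mapped fragments, by a small margin. FPKM scales fragments to gene length and to the mapped total but not to GC content, so levels compare between genes only roughly. Control replicate 2 stood apart from the other 3 libraries. Its log2(FPKM + 1) values correlated with the GLUP libraries at Pearson r of 0.873 and 0.886 across genes, against 0.952 and 0.957 for control replicate 1, and the controls correlated with each other at 0.933 and the GLUP libraries at 0.986. The mean over the 4 libraries was 1 FPKM or more for 7588 genes, and their median log2 fold change (GLUP minus control, on log2(FPKM + 1)) was -0.36. It followed GC content across genes (Spearman 0.577), as did the difference between the controls (control replicate 2 minus 1, -0.424). The members, apart from CSNK1G2, are therefore also given against either control alone and, for the 6 that reach that mean, after removal of the GC trend. VIM, a mesenchymal filament, stood between 293.3 and 387.2 FPKM, while the other mesenchymal markers were low, with CDH2 near 0 and FN1 at 1.15 and 3.25 FPKM in the controls and 0.655 and 0.671 FPKM with GLUP. The epithelial keratins KRT8, KRT18 and KRT19 stood between 0.764 and 2.25 FPKM, and their GLUP libraries were above their controls for each of the 3. EPCAM and CDH1 were near 0, as were the blood markers PTPRC and HBB and the endothelial marker VWF, and of the gastric genes MUC5AC, MUC6, TFF1, TFF2 and GKN1 the highest value was 0.0128 FPKM. The epithelial and gastric identity in the label is thus thinly marked in these libraries. Of the fibroblast genes, DCN stood between 20.07 and 41.35 FPKM, COL1A1 at 2.97 and 3.64 FPKM in the controls and 6.91 and 4.42 FPKM with GLUP, and COL1A2 between 0.246 and 0.443 FPKM. The part of these markers in the results was not tested.

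CSNK2A2, the alpha prime catalytic subunit, stood at 9.43 FPKM in control replicate 1 and 32.2 FPKM in control replicate 2, and at 1.37 and 0.452 FPKM in GLUP replicates 1 and 2. Both GLUP libraries lay below both controls, although the controls themselves differed by 3.41-fold. The means were 20.8 ± 16.1 FPKM in the controls and 0.912 ± 0.651 FPKM with GLUP (SD, n = 2 each), a ratio of 22.8. On the log2(FPKM + 1) scale the fold change was -3.33 with a standard error of 0.60, which ranked 2 from the lowest among 7588 genes. It was -2.49 against control replicate 1 alone, -4.16 against control replicate 2 alone and -2.67 after the GC trend was removed, ranks 34, 2 and 7. Its GLUP mean alone is under 1 FPKM, so it enters the tested genes through the controls. Values this low can rest on few fragments, whose number is not known. With a pseudocount of 0.1 in place of 1 the fold change was -4.28, so the size of the fall is uncertain. ENSG00000260927, a non-coding gene on the opposite strand, shares 35.7% of the exon bases of CSNK2A2 and stood at 1.81 FPKM in GLUP replicate 1 and was listed at 0 in the other 3 libraries. Strand handling is not stated, so reads of this overlap cannot be told apart. Of the 50-base words of the canonical CSNK2A2 transcript, 0.0% occurred on the opposite strand of another gene.

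CSNK2A1, the alpha catalytic subunit and the paralog that can replace it in the holoenzyme, stood at 4.97 and 2.93 FPKM in the controls and at 3.34 and 3.03 FPKM with GLUP. The groups overlapped, with control replicate 1 highest and control replicate 2 lowest. Its log2 fold change was -0.21 with a standard error of 0.32, and its sign followed the control used, at -0.51 against replicate 1 alone and 0.09 against replicate 2 alone. After the GC trend was removed it was 0.31. The copy CSNK2A3 stood at 1.66 and 0.822 FPKM in the controls and at 1.05 and 1.41 FPKM with GLUP, also overlapping, and CSNK2A3 can share reads with CSNK2A1.

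CSNK2B, the regulatory beta subunit that stabilises the holoenzyme and helps choose its substrates, was the most abundant member in every library. It stood at 127.7 and 90.5 FPKM in the controls and at 158.2 and 151.2 FPKM with GLUP. Both GLUP libraries lay above both controls, by 1.42-fold in the means, 109.1 ± 26.3 against 154.7 ± 4.97 FPKM (SD, n = 2 each). Its log2 fold change was 0.52 with a standard error of 0.34, 0.27 against control replicate 1 alone, 0.77 against control replicate 2 alone and 0.74 after the GC trend was removed. Of its 50-base words, 71.1% also lie in ENSG00000263020, an overlapping gene on the same strand that is listed at 0 in all 4 libraries.

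**Figure D1:**
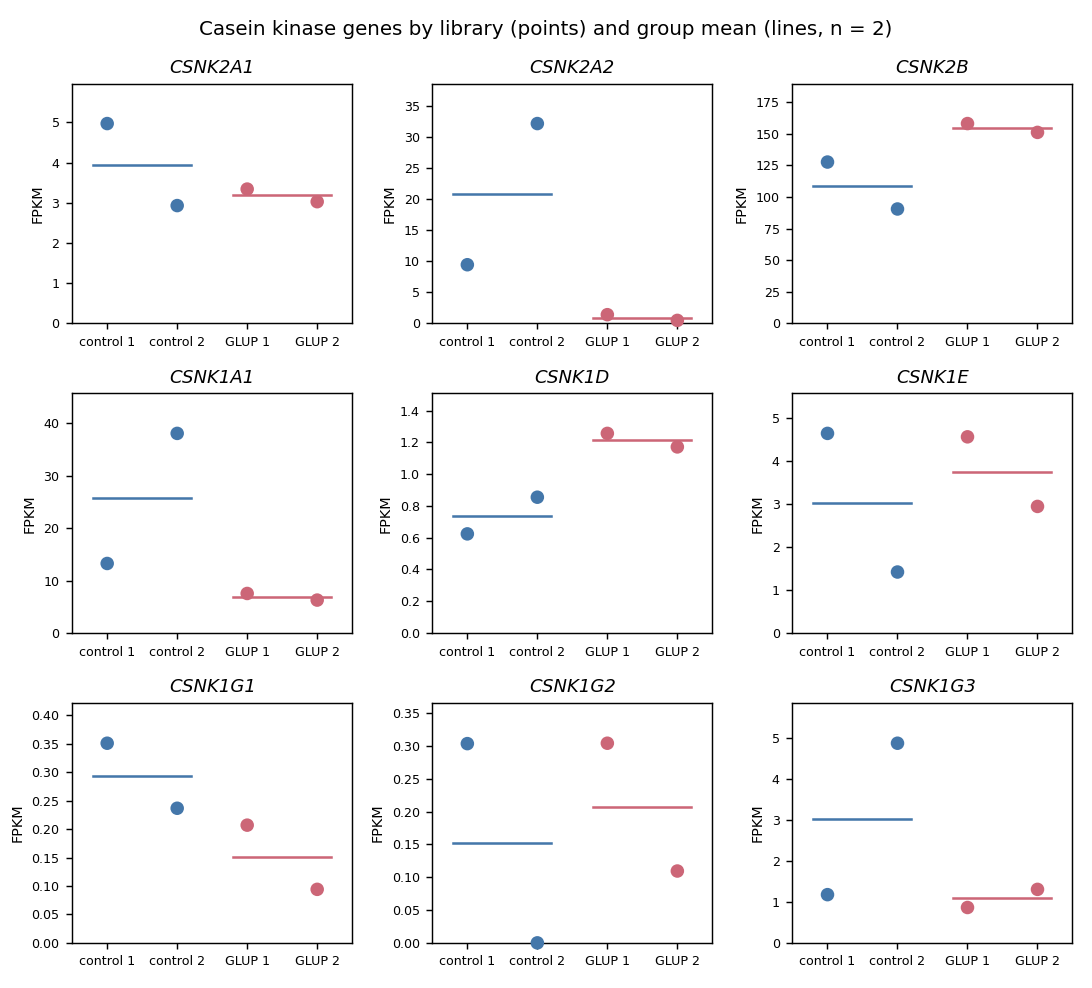
FPKM of each casein kinase gene in the 4 libraries, with points for libraries and lines for group means (n = 2); each panel has its own vertical axis from 0. CSNK2A2 and CSNK1A1 show both GLUP points below both controls and a wide gap between the controls, whereas CSNK2A1 overlaps and CSNK2B and CSNK1D lie above the controls.

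In FPKM, the balance between the catalytic paralogs was the reverse in the 2 groups. CSNK2A2 was chosen by its lower values with GLUP, and CSNK2A1 overlapped between the groups. The shares, sums and ratios given here therefore largely restate the fall of CSNK2A2. CSNK2A2 made up 65.5% and 91.7% of the summed FPKM of CSNK2A1 and CSNK2A2 in the controls, and 29.1% and 13.0% with GLUP. By FPKM, CSNK2A2 was thus the more abundant catalytic RNA in both controls and CSNK2A1 in both GLUP libraries. This order depends on the gene lengths used for FPKM, which are not given in the sources used here. The canonical transcripts have 12984 bases for CSNK2A1 and 1887 bases for CSNK2A2. With CSNK2A3 added to CSNK2A1, the CSNK2A2 shares became 58.7%, 89.6%, 23.8% and 9.25%, in the same order of libraries. The log2 fold change of CSNK2A2 minus that of CSNK2A1 was -3.11, and -1.98 without control replicate 2. The summed catalytic RNA stood at 14.4 and 35.1 FPKM in the controls and at 4.71 and 3.48 FPKM with GLUP. CSNK2B exceeded that sum 8.87-fold and 2.58-fold in the controls and 33.6-fold and 43.5-fold with GLUP. FPKM measures RNA, and no protein was measured in these files.

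CSNK1A1, the CK1 alpha kinase of the beta-catenin destruction complex, resembled CSNK2A2 most closely among the members. It stood at 13.3 and 38.1 FPKM in the controls and at 7.55 and 6.29 FPKM with GLUP. Both GLUP libraries lay below both controls, and the controls differed by 2.87-fold. The means of 25.7 ± 17.6 and 6.92 ± 0.893 FPKM (SD, n = 2 each) had a ratio of 3.71. The log2 fold change was -1.58 with a standard error of 0.52, rank 256 from the lowest of 7588. It was -0.85 against control replicate 1 alone, -2.31 against control replicate 2 alone and -0.88 after the GC trend was removed, ranks 1389, 101 and 594. Of the 50-base words of CSNK1A1, 47.1% also lie in ENSG00000230551, an overlapping non-coding gene on the same strand that stood at 0.0983 to 0.293 FPKM.

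CSNK1D and CSNK1E, the pair that completes the YAP phosphodegron, did not share the pattern of CSNK2A2. CSNK1D stood at 0.624 and 0.855 FPKM in the controls and at 1.26 and 1.17 FPKM with GLUP, so both GLUP libraries lay above both controls, by 1.64-fold in the means. Its log2 difference was 0.45 against control replicate 1 alone and 0.25 against control replicate 2 alone. Its mean over the 4 libraries, 0.976 FPKM, is just under the minimum of 1 FPKM for the fit. CSNK1E stood at 4.65 and 1.42 FPKM in the controls and at 4.57 and 2.95 FPKM with GLUP. These groups overlapped, with the lowest value in control replicate 2. The log2 fold change of CSNK1E was 0.34 with a standard error of 0.47, -0.27 against control replicate 1 alone, 0.95 against control replicate 2 alone and -0.06 after the GC trend was removed, so its sign depended on the setting. The summed FPKM of the pair stood at 5.27 and 2.28 in the controls and at 5.82 and 4.12 with GLUP. The readthrough gene TPTEP2-CSNK1E, which holds 45.8% of the 50-base words of CSNK1E, stood at 0 to 0.304 FPKM.

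Of the membrane-bound gamma kinases, CSNK1G3 was the more abundant. It stood at 1.18 and 4.88 FPKM in the controls and at 0.865 and 1.31 FPKM with GLUP, so only control replicate 2 was high and the groups overlapped. Its log2 fold change was -0.79 with a standard error of 0.49, but -0.07 against control replicate 1 alone, -1.50 against control replicate 2 alone and -0.0049 after the GC trend was removed. CSNK1G1 stood at 0.351 and 0.237 FPKM in the controls and at 0.207 and 0.0941 FPKM with GLUP, with both GLUP libraries below both controls. Its log2 difference was -0.23 against control replicate 1 alone and -0.11 against control replicate 2 alone. CSNK1G2 stood at 0.303 FPKM in control replicate 1, was listed at 0 in control replicate 2, and stood at 0.304 and 0.109 FPKM with GLUP. At these levels a value can rest on few fragments, and their number is not known.

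The 6 CK1 genes summed to 20.4 and 45.5 FPKM in the controls and to 14.7 and 11.9 FPKM with GLUP. CSNK1A1 accounted for 65.1% and 83.8% of it in the controls and for 51.2% and 52.8% with GLUP. The share of CSNK1D and CSNK1E together was 25.9% and 5.00% in the controls and 39.5% and 34.6% with GLUP, higher in both GLUP libraries than in both controls. The summed FPKM of the pair overlapped, at 5.27 and 2.28 in the controls and 5.82 and 4.12 with GLUP. Their share therefore also reflects the lower CSNK1A1 in the total.

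**Figure D2:**
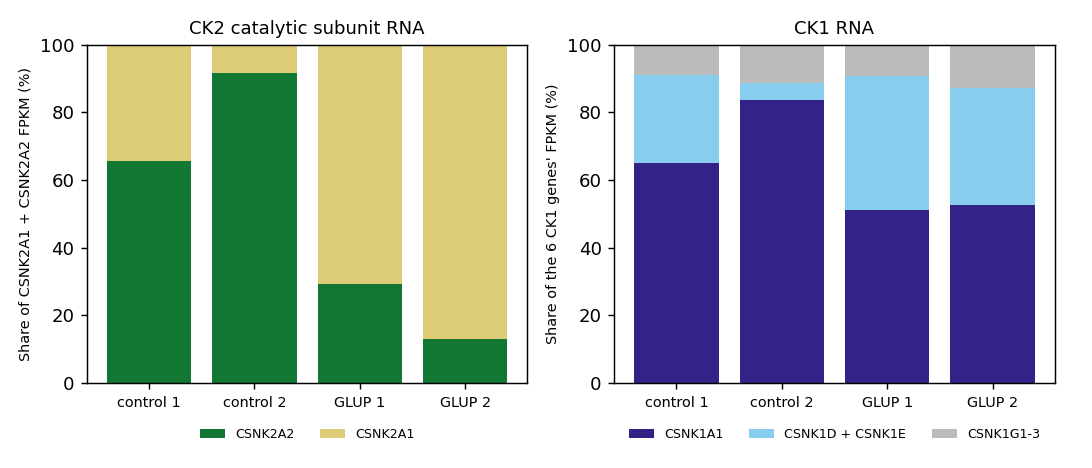
Stacked bars of the share of summed FPKM (%) per library, for CSNK2A2 and CSNK2A1 (left) and for CSNK1A1, CSNK1D plus CSNK1E, and the 3 gamma genes (right). CSNK2A2 takes 65.5% and 91.7% of the catalytic RNA in the controls and 29.1% and 13.0% with GLUP.

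Ordered by their control means, the members ran CSNK2B, CSNK1A1, CSNK2A2, CSNK2A1, CSNK1E, CSNK1G3, CSNK1D, CSNK1G1 and CSNK1G2. The control libraries of CSNK1A1 and CSNK2A2 overlapped in level, as did those of CSNK2A1, CSNK1E and CSNK1G3, and those of CSNK1G1 and CSNK1G2, whereas the other neighbours were separated. With GLUP the order was CSNK2B, CSNK1A1, CSNK1E, CSNK2A1, CSNK1D, CSNK1G3, CSNK2A2, CSNK1G2 and CSNK1G1. CSNK2A2 moved from the third place to the seventh, where it overlapped with CSNK1D and CSNK1G3.

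Taken as a family, the casein kinases did not move in one direction. Both GLUP libraries lay below both controls for 3 of the 9 (CSNK2A2, CSNK1A1 and CSNK1G1), against 26.5% of the 28873 genes above 0 in any library. They lay above both controls for 2 (CSNK2B and CSNK1D), against 13.2% of those genes, and overlapped for the other 4. That background includes many genes near 0. Among the 7588 genes tested the shares were higher, 49.7% below and 17.5% above. Of the 6 members tested, only CSNK2A2 and CSNK1A1 lay below both controls and only CSNK2B above. The mean fold was over 2 and lower with GLUP for 2 members, CSNK2A2 and CSNK1A1, on the log2(FPKM + 1) scale, where 16.3% of tested genes were, and higher for none, where 6.83% were. The median log2 fold change was -0.17 over the 9 members and -0.05 over the 6 CK1 genes, and these include 3 genes under 1 FPKM, whose values on this scale are drawn towards 0. Over the 6 members tested it was -0.50, beside -0.36 over the genes tested. The control replicates differed by 1.43 to 1.67 on the log2 scale, higher in replicate 2, for CSNK2A2, CSNK1A1 and CSNK1G3. These 3 have the lowest GC content of the members, 41.6%, 40.2% and 37.8%, and CSNK1E, at 58.2% GC, was lower in replicate 2 by 1.22. The other members did not follow GC content in order. Replicate 2 minus 1 was -0.60 for CSNK2A1 (44.3% GC), -0.13 for CSNK1G1 (44.7%) and -0.49 for CSNK2B (49.2%). It was 0.19 for CSNK1D (57.4%) and -0.38 for CSNK1G2 (65.1%). The part of GC content and of control replicate 2 in the differences with GLUP was not tested.

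**Figure D3:**
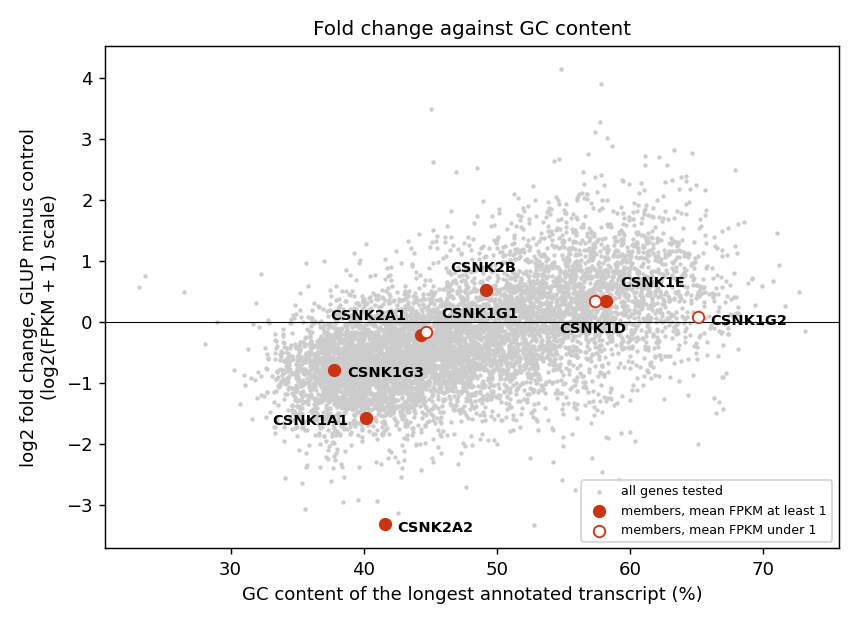
Log2 fold change (GLUP minus control, log2(FPKM + 1) scale) against the GC content (%) of the longest annotated transcript, with grey points for the genes tested, filled red points for members with a mean of at least 1 FPKM and open points for the other members. CSNK2A2, which was chosen by its lower values with GLUP, lies at -3.33 and 41.6% GC. STRN3, at 41.0% GC, lies at -2.94, and CSNK1A1 and CSNK1G3 lie higher than both.

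The genes whose pattern over the 4 libraries was nearest to that of CSNK2A2 were taken by Euclidean distance of log2(FPKM + 1) values centred on each gene's mean. They were STRN3 at 0.615, ASF1A at 0.877, ENSG00000286001 at 0.918, ANKRD10 at 0.919 and ADAM17 at 0.982. STRN3, a striatin subunit of a PP2A complex, stood at 15.3 and 62.3 FPKM in the controls and at 3.31 and 3.04 FPKM with GLUP, and so shares with CSNK2A2 both the low GLUP values and the higher control replicate 2. ASF1A, a histone chaperone, stood at 74.3, 218.3, 18.9 and 20.0 FPKM in the same order. Among the members the nearest was CSNK1A1, at a distance of 1.78, followed by CSNK1G3 at 2.64, CSNK2A1 at 3.53, CSNK2B at 4.16 and CSNK1E at 4.20.

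Genes that act with the casein kinases were listed as 81 genes found in the table, of which 38 could be tested with limma. None of the 38 passed a Benjamini-Hochberg adjusted p of 0.05 with a fold over 2, as 0.0264% of the genes tested (2 genes) did, and the smallest adjusted p of the 38 was 0.10. At an unadjusted p under 0.05 with a fold over 2, 10 were lower and 2 higher with GLUP, against 14.5% and 4.67% of the genes tested (19.2% in both directions). Their median log2 fold change was -0.54, and -0.11 after the GC trend was removed.

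In the Hippo pathway and the machinery that degrades YAP, 9 of 15 genes could be tested, and both GLUP libraries lay below both controls for 6 and above for 1. Among the tested genes, this holds for 49.7% and 17.5%. STK3, the kinase MST2 upstream of LATS, stood at 4.01 and 2.10 FPKM in the controls and at 0.949 and 0.778 FPKM with GLUP, with a log2 fold change of -1.08 (limma, adjusted p = 0.107) that was -0.28 after the GC trend was removed. MOB1A, the LATS coactivator, had a log2 fold change of -0.92 (limma, adjusted p = 0.122), and CUL1, the scaffold of the ubiquitin ligase that reads the YAP phosphodegron, one of -0.74 (limma, adjusted p = 0.151), which were -0.12 and -0.33 after the GC trend was removed. YAP1 itself stood at 0.971 and 1.07 FPKM in the controls and at 0.228 and 0.638 FPKM with GLUP, below the minimum for the fit. BTRC, the ligase subunit that binds the phosphodegron, stood at 1.25 and 0.992 FPKM in the controls and at 0.607 and 0.457 FPKM with GLUP. YAP1 and BTRC were named after their values were seen, and other genes of the list did not fall. FBXW11 overlapped, at 1.03 and 0.451 FPKM in the controls and 0.459 and 0.544 FPKM with GLUP. Of the tested genes, WWTR1 and SKP1 overlapped. NF2 was the gene above both controls, at 0.73, and 0.47 after the GC trend was removed.

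In the Wnt and beta-catenin list, 4 of 20 genes could be tested. PPP2CA, the catalytic subunit of the phosphatase PP2A, stood at 4.65 and 5.42 FPKM in the controls and at 1.56 and 1.71 FPKM with GLUP, a log2 fold change of -1.19 (limma, adjusted p = 0.10) that was -0.48 after the GC trend was removed. Its scaffold PPP2R1A had a log2 fold change of 0.55 (limma, adjusted p = 0.226), 0.44 after the GC trend was removed, with the GLUP libraries above the controls. CTNNB1, the beta-catenin that CSNK1A1 primes, stood at 0.678 and 7.71 FPKM in the controls and at 1.63 and 1.81 FPKM with GLUP, between the controls. Of the 10 genes that anchor or activate CK1, 3 could be tested and for all 3 both GLUP libraries lay below both controls, as they did for 49.7% of the genes tested. They were DDX3X, an RNA helicase that activates CSNK1E (-1.26, limma, adjusted p = 0.103), AKAP9, a centrosomal scaffold (-1.18, limma, adjusted p = 0.114), and FAM83D, which brings CSNK1A1 to the spindle (-0.50, limma, adjusted p = 0.199). After the GC trend was removed DDX3X was at -0.53, AKAP9 at -0.42 and FAM83D at -0.42. None of 12 circadian clock genes reached the minimum level.

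Of the CK2 partners and substrates, 22 of 24 could be tested, and both GLUP libraries lay below both controls for 13 and above for 5, where 49.7% and 17.5% of the genes tested did so. SET, a histone chaperone and inhibitor of PP2A, stood at 627.6 and 2608 FPKM in the controls and at 335.1 and 321.8 FPKM with GLUP, a log2 fold change of -1.96 (limma, adjusted p = 0.125). XRCC4, a DNA repair protein, had a log2 fold change of -1.83 (limma, adjusted p = 0.10). CDC37, the kinase cochaperone that works once CK2 has phosphorylated it, lay on the other side, at 35.0 and 10.8 FPKM in the controls and 63.4 and 65.6 FPKM with GLUP, a log2 fold change of 1.67 (limma, adjusted p = 0.125). After the GC trend was removed SET was at -1.24, XRCC4 at -1.01 and CDC37 at 1.19, and against control replicate 1 alone they were at -0.93, -1.39 and 0.86.

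**Figure D4:**
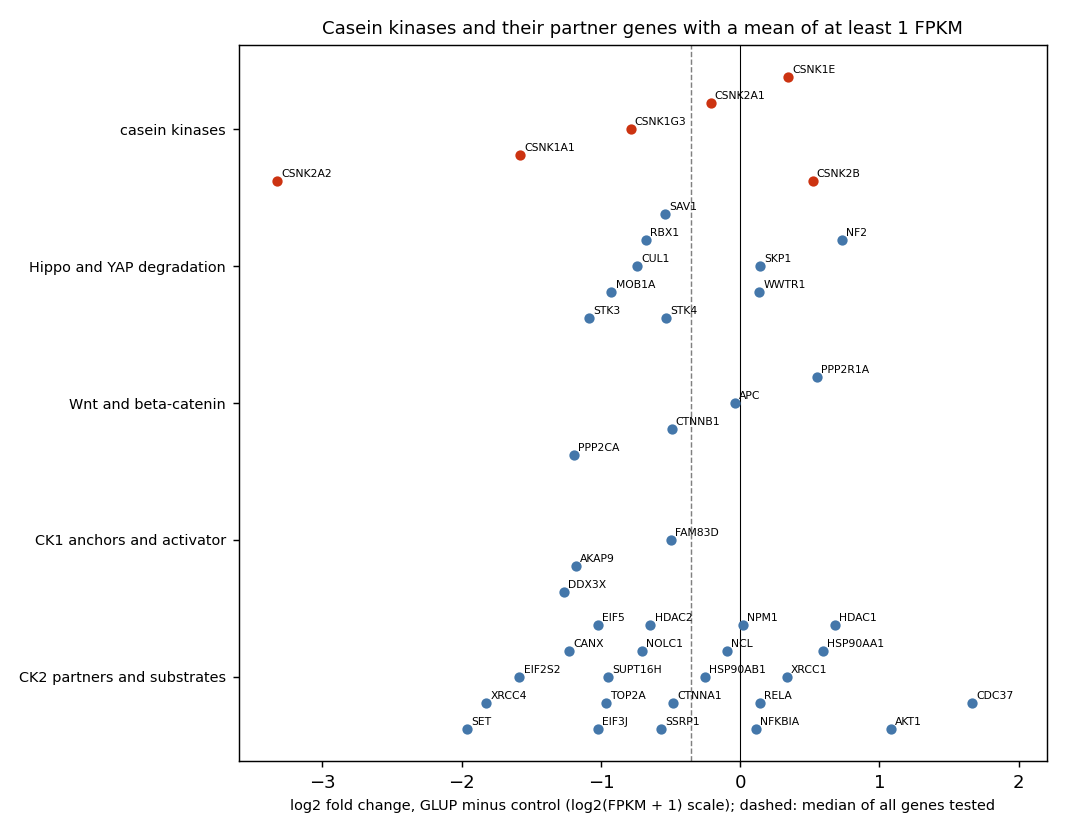
Log2 fold change (GLUP minus control, log2(FPKM + 1) scale) of the 6 members and 38 partner genes tested, by list, with vertical positions spread for legibility and the median of the genes tested dashed. CSNK2A2, which was chosen by its lower values with GLUP, lies at -3.33. The lowest of the partners is SET at -1.96.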

How the data were processed

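The 9 members and the partner lists were chosen with earlier results of these data known. Total RNA of HGC-27 cells from biological replicates was sequenced, and the data were analysed on the Majorbio platform. The authors deposited FPKM values, one row per Ensembl gene and one column per library. The submitters' processing notes list HISAT2, Cufflinks and RSEM and the build GRCh38.p10, while the row identifiers carry suffixes of a GENCODE annotation lifted to GRCh37. Tool versions and strand handling are not given in the sources used here.

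Rows of one gene were summed (62492 rows, 62443 genes), and 99.55% received a symbol by gene ID. Repeated ratios among low values gave a relative depth from few genes only, so reads were not recovered and absolute depth is unknown. Values were transformed to log2(FPKM + 1). The 7588 genes whose mean reached 1 FPKM were fitted with limma 3.58.1 (R 4.3.3), letting the variance prior follow mean level, with p-values adjusted after Benjamini-Hochberg. The script was tested on simulated data. The GC trend was removed with lowess (span 0.3) per library. Alternatives covered pseudocount, filter, centring, quantile normalization, GC content, trend, replicate block and omission of each library. Named partners were, per list, the called genes and the 3 tested genes of largest absolute fold change whose groups did not overlap. YAP1, BTRC, CTNNB1, FBXW11, WWTR1, SKP1 and NF2 were added after their values were seen. Replicate numbers do not pair the libraries, since nothing ties them and there are only 2 pairs.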

Additional observations from a re-analysis of the deposited data

How the results depend on the processing

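Over the pseudocount, filter, centring, quantile, GC and left-out-library settings, the fold change of CSNK2A2 ran from -4.28 to -2.49. These ends came with a pseudocount of 0.1 and without control replicate 2. CSNK2A2 was chosen by its lower values with GLUP, and both GLUP libraries lay below both controls. Pseudocount, filter and omission of a library could therefore not change its sign, and its sign is no support for the fall. The CSNK2A2 minus CSNK2A1 difference ran from -4.25 to -1.98 with 1 library left out. CSNK1G3 turned to 0.036 with GC correction and centring, an alternative chosen after seeing the data, and CSNK1E turned to -0.06 with GC correction. CSNK2A1 turned to 0.13 with centring and with quantile normalization and to 0.31 with GC correction. The number of members with both GLUP libraries below both controls ran from 3 to 5 with 1 library left out, 5 without control replicate 2, and the members' median was 0.09 without control replicate 1. Counts and medians over all 9 members are not given under centring, quantile normalization or GC correction, which do not extend to genes near 0.

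The number of genes called, 2 in the main fit, was 1 with a pseudocount of 0.1, with centring and with quantile normalization. It was 0 with limma for the 28873 genes above 0 (1293 at an unadjusted p under 0.05 with a fold over 2), for a mean of at least 5 FPKM (890), with GC correction (702), without the trend (1461) and with GC correction and centring (723). With the replicate block it was 2, and 16 with the replicate block and GC correction. With 1 library left out it ran from 4 to 2710, the highest without control replicate 1 and 1020 without control replicate 2, where the lone control is assumed to vary like the GLUP group. Partner genes called ran from 0 to 15 with 1 library left out, 15 without control replicate 1 and 6 without control replicate 2. Deviations of same-numbered libraries correlated at 0.126. The unknown depth limits what can be said of CSNK1G1, CSNK1G2, CSNK1D and the GLUP values of CSNK2A2.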
